A study of Mus musculus with 9 samples.

Results

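The 35 genes described here mark cells that do not belong to the lens but lie against it or move through the eye: red blood cells, vessel endothelium, the mural cells around vessels, macrophages, photoreceptors, pigment cells and the corneal surface. They were chosen by symbol from lists of cell type markers, as 35 of the 47729 genes in the tables: 6 erythroid, 8 endothelial, 3 mural, 9 macrophage, 3 photoreceptor, 4 pigment and 2 corneal genes. RNA-Seq was performed on polyadenylated RNA from whole newborn lenses of wild-type *FVB/N* mice and of *P0-3.9GFPCre* and *Le-Cre* mice, both hemizygous and both on the *FVB/N* background. Each line was represented by 3 pools, and every pool held 6 lenses from 3 mice, so that a value is a mean over those animals. Both transgenes co-express CRE and GFP from a *Pax6* promoter fragment that is active in the developing lens and pancreas. The paper also found CRE protein in the corneal epithelium and in cells of the neural retina in embryos of both lines. Non-ocular CRE reporter expression was widespread in *P0-3.9GFPCre* embryos. In *Le-Cre* it included the pancreas and, in many embryos, part of the forebrain. *FVB/N* mice are albino and carry the rd1 mutation, which destroys photoreceptors after birth, and the wild-type controls share both traits with the transgenic lines.

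The lens itself has no blood vessels. Before birth, however, it is wrapped in a capillary net fed by the hyaloid artery, with endothelial tubes, mural cells and resident macrophages, and this net regresses after birth with the help of those macrophages. The neural retina lies behind the lens, the ciliary body and iris attach close to its equator, and the cornea lies in front of it. These are the tissues that lie nearest to a newborn lens when it is dissected, and the vessels among them hold blood.

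The pools had the composition of lens. Crystallin genes took 56.5% to 60.8% of TPM, RSEM's measure of transcript abundance per unit of gene length and relative to the whole library. The α-crystallin gene *Cryaa* alone was at 123596 to 151085 TPM. All 35 marker genes together summed to between 126 TPM in *P0-3.9GFPCre* replicate 2 and 324 TPM in *Le-Cre* replicate 2, which is 0.0126% to 0.0324% of TPM. Total expected counts, which are the reads RSEM assigned to genes, ranged from 20670968 to 28098059 per pool. A count of 3, the limit that a count of 0 allows, corresponded to 0.107 to 0.145 CPM, which is counts scaled to the library size, and such limits cover counting error only. In pools of tissue like these, fewer cells of a type and less RNA per cell cannot be told apart.

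Red cell genes made up most of the marker signal, and nearly all of it was globin. The 4 adult globin genes gave 99.6% to 99.9% of the erythroid TPM in every pool. Each adult globin is present in near-identical copies, which is shown here because it limits how far single copies can be read. The coding sequences of *Hba-a1* (GRCm38 chr11:32283511-32284465) and *Hba-a2* (chr11:32296489-32297298), which encode the α chain of haemoglobin, are 429 bases long and differ at 1 base. Those of *Hbb-bs* (chr7:103826534-103828096) and *Hbb-bt* (chr7:103812524-103813996), which encode its β chain, are 444 bases long and also differ at 1 base. The stretches around the differing bases, from GENCODE M21 transcripts of C57BL/6J, are printed 5′ to 3′ with the differing base in capitals. They start at position 351 of the α coding sequence and at position 387 of the β coding sequence, counted from the A of the start codon.
Hba-a1: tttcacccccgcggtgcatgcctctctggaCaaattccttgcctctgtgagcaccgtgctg
Hba-a2: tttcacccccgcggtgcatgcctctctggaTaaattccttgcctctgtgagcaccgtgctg
Hbb-bs: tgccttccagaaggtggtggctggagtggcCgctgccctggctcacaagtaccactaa
Hbb-bt: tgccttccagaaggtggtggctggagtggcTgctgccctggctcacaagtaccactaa
The substitutions were C381T from *Hba-a1* to *Hba-a2* and C417T from *Hbb-bs* to *Hbb-bt*. Of all 51-base sequences in the annotated transcripts of a gene, 72.1% for *Hba-a1*, 89.1% for *Hba-a2*, 53.1% for *Hbb-bs* and 58.2% for *Hbb-bt* also occurred in its partner. RSEM's posterior standard deviation of the count was 2.97% to 6.97% of the count for *Hbb-bs* but 19.95% to 126% for *Hbb-bt*, and it was 12.6% to 24.9% for *Hba-a1*. The division of reads within a pair was thus uncertain, least so for *Hbb-bs*. Whether *FVB/N* alleles of these genes shifted that division was not tested.

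*Hbb-bs*, the β chain gene with the highest level of all 35 members, was at 53.6, 93.0 and 50.2 TPM in *FVB/N* replicates 1 to 3. It was at 74.0, 45.2 and 74.9 TPM in *P0-3.9GFPCre* replicates 1 to 3 and at 79.5, 143 and 48.6 TPM in *Le-Cre* replicates 1 to 3. *Hba-a2* was at 30.2, 53.2 and 24.8 TPM in *FVB/N*, at 40.3, 27.8 and 36.4 TPM in *P0-3.9GFPCre* and at 44.4, 63.7 and 22.7 TPM in *Le-Cre*, in the same order of replicates. For both genes the lines overlapped, each line held at least 1 pool near the bottom of the range, and *Le-Cre* replicate 2 was the highest of all pools. *Hba-a1* was at 11.95 to 39.7 TPM over the 9 pools and *Hbb-bt* at 1.07 to 15.7 TPM. Summed over the copies, α-globin was at 35.1 to 103 TPM and β-globin at 46.7 to 159 TPM. The ratio of α to β stayed between 0.652 and 0.856, while either sum moved more than that, so the 2 chains moved together between pools.

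The erythroid members other than the globins were at low levels. Some further genes listed as erythroid were higher and are given below. *Alas2*, the erythroid enzyme that starts haem synthesis, was at 0.15 to 0.64 TPM. *Slc4a1*, the anion exchanger of the red cell membrane, had 0 reads in 8 pools and 1 read in *Le-Cre* replicate 1. *Alas2* also showed how the unit can matter: RSEM assigned it a transcript length of 840 bases in *Le-Cre* replicate 1 and of 2037 bases in *FVB/N* replicate 1. Those pools held 7.29 and 13.9 expected counts of the gene, yet 0.35 and 0.28 TPM, so their order turned between counts and TPM.

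The upstream sequences of the globin genes are shown as a description, and a link between them and the levels was not tested. The 110 bases before the start of each gene were taken from RefSeq (GRCm38.p6), where 25 of the 35 members had an entry. RefSeq starts these genes further downstream than GENCODE M21, so that the windows of *Hba-a1* and *Hbb-bs* lie wholly, and those of *Hba-a2* and *Hbb-bt* partly, inside the gene spans given above. They lie at chr11:32283562-32283671 on the plus strand for *Hba-a1*, at chr11:32296382-32296491 on the plus strand for *Hba-a2*, at chr7:103827929-103828038 on the minus strand for *Hbb-bs* and at chr7:103813924-103814033 on the minus strand for *Hbb-bt*. Capitals mark 4 motif cores on either strand, and neighbouring matches may touch. They are CACCC for the CACCC box, CCAAT for the CCAAT box, TATAAA for the TATA box and AGATAA for the GATA motif, all known from erythroid or general promoters.
Hba-a1: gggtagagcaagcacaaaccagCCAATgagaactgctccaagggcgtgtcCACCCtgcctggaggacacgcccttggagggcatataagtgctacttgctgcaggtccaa
Hba-a2: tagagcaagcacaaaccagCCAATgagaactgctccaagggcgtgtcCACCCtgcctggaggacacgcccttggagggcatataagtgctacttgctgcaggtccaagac
Hbb-bs: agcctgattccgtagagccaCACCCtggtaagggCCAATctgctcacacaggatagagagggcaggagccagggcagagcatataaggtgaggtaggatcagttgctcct
Hbb-bt: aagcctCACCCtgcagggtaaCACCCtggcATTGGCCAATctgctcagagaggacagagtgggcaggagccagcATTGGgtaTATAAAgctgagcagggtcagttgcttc
Within 250 bases upstream, CACCC was held by all 5 erythroid promoters in the table (the 4 globins and *Alas2*) and by 52.0% of 32851 promoters. CCAAT was held by 4 of the 5 and by 33.8% of all, TATAAA by 2 and by 12.4%, and AGATAA by 2 and by 9.99%. Over all 26 member promoters, of which *Ptprc* has 2, the counts were 18, 13, 6 and 6 in the same order. A match describes these letters only and is not evidence of a bound factor.

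**Figure D1:**
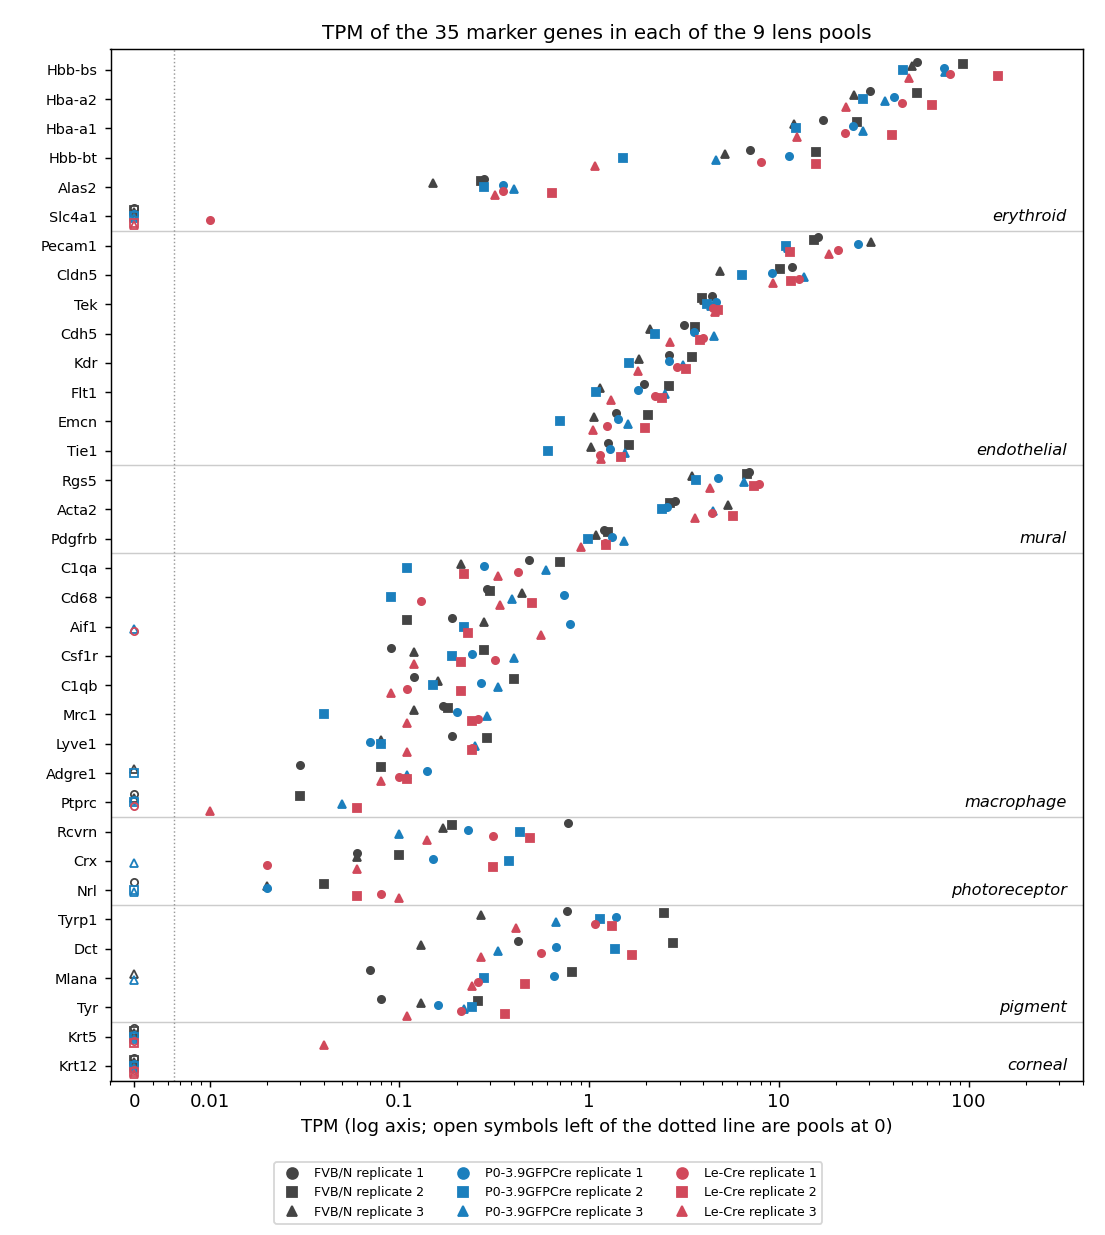
TPM of each of the 35 marker genes (rows, grouped by cell type and ordered by mean) in the 9 lens pools, on a log axis, with colour for the line, symbol shape for the replicate and open symbols for pools at 0. Globins span 1.07 to 143 TPM, vessel genes 0.61 to 30.7 TPM, and every macrophage and photoreceptor gene lies below 1 TPM in every pool.

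All 8 endothelial genes and all 3 mural genes were detected in every pool. *Pecam1* encodes the adhesion molecule at endothelial junctions and was the highest, at 16.1, 15.3 and 30.7 TPM in *FVB/N* replicates 1 to 3. It was at 26.0, 10.9 and 11.2 TPM in *P0-3.9GFPCre* and at 20.5, 11.5 and 18.4 TPM in *Le-Cre*. *Cldn5*, a tight junction protein of endothelium, followed with 11.8, 10.1 and 4.92 TPM in *FVB/N*, 9.23, 6.41 and 13.5 TPM in *P0-3.9GFPCre* and 12.8, 11.6 and 9.33 TPM in *Le-Cre*. *FVB/N* replicate 3 was thus the highest of the 9 pools for *Pecam1* and the lowest for *Cldn5*, and no line stood apart in either gene.

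*Cdh5*, the cadherin of endothelial junctions, was at 2.09 to 4.57 TPM. The VEGF receptors were lower, with *Kdr* at 1.63 to 3.47 TPM and *Flt1* at 1.08 to 2.62 TPM. *Emcn*, a sialomucin of capillaries and veins, was at 0.70 to 2.04 TPM and *Tie1*, an orphan receptor tyrosine kinase of endothelium, at 0.61 to 1.62 TPM. Ordered by the median over pools, the levels ran *Pecam1*, *Cldn5*, *Tek*, *Cdh5*, *Kdr*, *Flt1*, *Emcn* and *Tie1*, and the ranges over pools of neighbours in this order overlapped, except those of *Cldn5* and *Tek*.

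*Tek*, the receptor of the angiopoietins, varied less than the other endothelial members. It was at 4.45, 3.94 and 4.04 TPM in *FVB/N*, at 4.68, 4.2 and 4.38 TPM in *P0-3.9GFPCre* and at 4.47, 4.76 and 4.62 TPM in *Le-Cre*. The highest pool exceeded the lowest 1.21-fold, against 2.13-fold to 2.91-fold for the other 7 endothelial genes. The coefficient of variation (CV) within lines, which is the SD over the mean of CPM combined over the 3 lines, was 5.58% for *Tek* and 26.3% to 43.2% for the others. Some other vessel genes also varied little, at 14.9% for the mural member *Pdgfrb* and at 9.36% and 13.8% for the further markers *Egfl7* and *Notch3*. The median CV was 33.1% over 21 further endothelial and 31.9% over 10 further mural genes. Over 15 lens genes, among them crystallins and fibre membrane proteins, the median CV was 6.35%.

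Among mural genes, *Rgs5*, a regulator of G protein signalling and a marker of pericytes, was at 6.95, 6.78 and 3.49 TPM in *FVB/N*, at 4.79, 3.66 and 6.53 TPM in *P0-3.9GFPCre* and at 7.84, 7.41 and 4.33 TPM in *Le-Cre*. *Acta2*, smooth muscle actin, was at 2.82, 2.66 and 5.38 TPM in *FVB/N*, at 2.58, 2.43 and 4.51 TPM in *P0-3.9GFPCre* and at 4.42, 5.71 and 3.59 TPM in *Le-Cre*. *FVB/N* replicate 3, the lowest pool for *Rgs5*, was the second highest for *Acta2*. *Pdgfrb*, the PDGF receptor of pericytes, was at 0.90 to 1.52 TPM.

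Pools differed within each line, and most blood and vessel genes had their lowest level of a line in the same pool. This pattern was noticed in the values and is given as a description. Of the 16 erythroid, endothelial and mural genes that passed edgeR's filter on low counts, 13 had their lowest *FVB/N* level in replicate 3, all 16 their lowest *P0-3.9GFPCre* level in replicate 2, and 12 their lowest *Le-Cre* level in replicate 3. Over all 23 tested members, macrophage and pigment genes included, the counts were 18, 19 and 18. Among all 15557 tested genes the same pools were the lowest of their line for 35.8%, 34.5% and 31.2%. These 3 pools were also the 3 lowest of all 9 for 8 of the 23 tested members, namely *Hba-a1*, *Hba-a2*, *Cdh5*, *Kdr*, *Flt1*, *Rgs5*, *Pdgfrb* and *Mrc1*, and for 1.3% of all tested genes. The 3 pools were picked from the values as 1 in each line, so they cannot show whether the low levels differ between lines. Among the 16 blood and vessel genes, the exceptions in *FVB/N* were *Pecam1*, *Acta2* and *Tek*. *Pecam1* and *Acta2* had their highest level of the line in replicate 3, and *Tek* barely varied. The exceptions in *Le-Cre* were *Alas2*, *Tie1*, *Pecam1* and *Tek*.

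**Figure D2:**
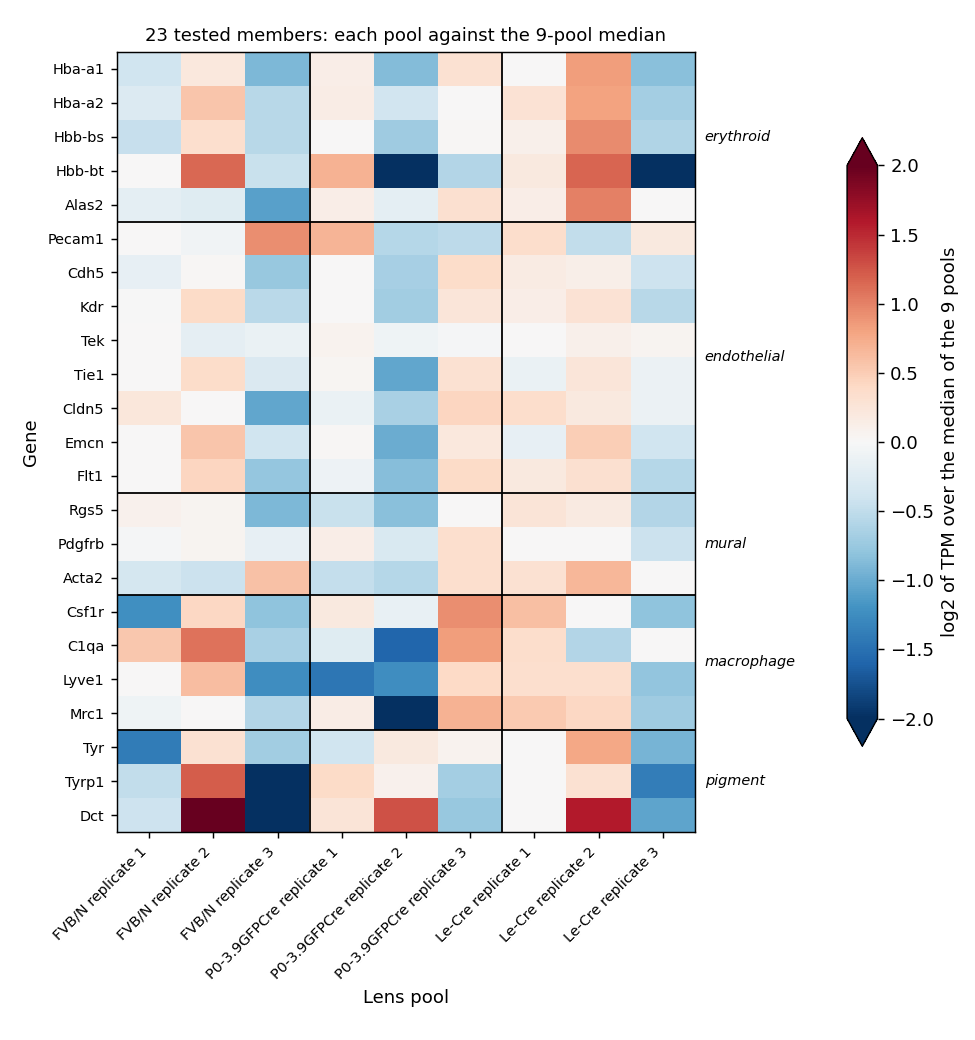
Level of the 23 tested members (rows, grouped by cell type) in each lens pool (columns, grouped by line), as the log2 of TPM over the median of the 9 pools, with red above and blue below the median and colours capped at 2. *FVB/N* replicate 3, *P0-3.9GFPCre* replicate 2 and *Le-Cre* replicate 3 are blue for most blood and vessel genes, *Tek* is pale throughout, and *Pecam1* and *Acta2* are red in *FVB/N* replicate 3.

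Most genes of a wider list of vessel markers also had their lowest level of a line in these pools. Of 31 further endothelial and mural genes that were tested, 22 had their lowest *FVB/N* level in replicate 3, 24 their lowest *P0-3.9GFPCre* level in replicate 2 and 25 their lowest *Le-Cre* level in replicate 3. Further erythroid genes were not part of this count. These pools were the 3 lowest of all 9 for 0 of 9 tested further erythroid genes. They were so for 6 of 21 further endothelial and 3 of 10 further mural genes. The lowest pools were not the shallowest in every line. *FVB/N* replicate 3 had 25450719 expected counts, between the other two *FVB/N* pools, whereas *P0-3.9GFPCre* replicate 2 and *Le-Cre* replicate 3 had the lowest totals of their lines. The part of depth in this pattern was not tested.

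**Figure D3:**
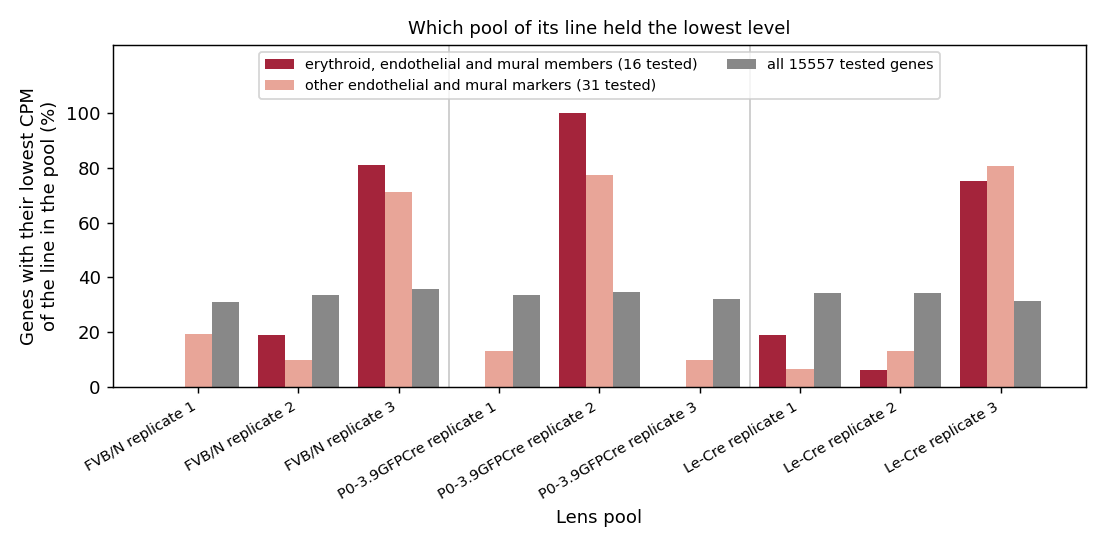
Share of genes, in percent, whose lowest CPM of the line fell in each pool (x axis), for the 16 tested erythroid, endothelial and mural members, 31 other endothelial and mural markers, and all 15557 tested genes. *FVB/N* replicate 3, *P0-3.9GFPCre* replicate 2 and *Le-Cre* replicate 3 hold 81.2%, 100% and 75% of the members, 71%, 77.4% and 80.6% of the other vessel markers, and 31.2% to 35.8% of all genes.

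Macrophage genes were near the limit of detection. Each of the 9 members stayed at or below 0.79 TPM in every pool, and 4 of them, *Csf1r*, *C1qa*, *Lyve1* and *Mrc1*, passed the filter on low counts. Expected counts in *FVB/N*, *P0-3.9GFPCre* and *Le-Cre* replicates 1 to 3 were as follows for the other members. *Cd68*, a lysosomal glycoprotein, had 7, 5 and 6, then 10, 1 and 9, then 4, 12 and 7 counts. *Adgre1*, the F4/80 antigen, had 2, 5 and 0, then 9, 0 and 7, then 8, 8 and 5 counts.

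These counts overlapped between the lines, and the pools at 0 came from different lines. *Aif1*, a calcium-binding protein of macrophages and microglia, had 2, 1 and 5, then 7, 3 and 0, then 0, 4 and 5 counts. *C1qb*, a chain of complement C1q, had 3, 9 and 4, then 6, 3 and 7, then 3, 5 and 2 counts. *Ptprc*, the CD45 antigen of all white blood cells, had 0, 2 and 0, then 0, 0 and 4, then 0, 5 and 1 counts.

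None of these 5 genes, which did not pass the filter, had more than 12 reads in a pool. The 4 macrophage members that passed it reached 38.9 counts for *Csf1r*, 36 for *Mrc1*, 16 for *Lyve1* and 15 for *C1qa* in their highest pools. *C1qa*, the gene of another C1q chain, was at 0.48, 0.70 and 0.21 TPM in *FVB/N*, at 0.28, 0.11 and 0.59 TPM in *P0-3.9GFPCre* and at 0.42, 0.22 and 0.33 TPM in *Le-Cre*. *Csf1r*, the receptor for the growth factor of macrophages, was at 0.09 to 0.40 TPM. *Mrc1*, the mannose receptor, was at 0.04 to 0.29 TPM and *Lyve1*, a hyaluronan receptor of lymphatic endothelium and of some macrophages, at 0.07 to 0.29 TPM. Summed over the 9 genes, the lowest pool was *P0-3.9GFPCre* replicate 2 with 0.88 TPM and the highest *P0-3.9GFPCre* replicate 1 with 2.73 TPM.

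Photoreceptor genes did not pass the filter in any case. *Rcvrn*, a calcium sensor of photoreceptors, had 19, 4 and 4 counts in *FVB/N*, 5, 8 and 2 in *P0-3.9GFPCre* and 8, 11 and 3 in *Le-Cre*. *Crx*, the homeobox factor of photoreceptor precursors, had 4.35, 6.26 and 4.19 counts in *FVB/N*, 9.45, 10.03 and 0 in *P0-3.9GFPCre* and 1.22, 20.3 and 3.83 in *Le-Cre*. *Nrl*, the factor that sets rod identity, had 0, 2.12 and 1 counts in *FVB/N*, 1, 0 and 0 in *P0-3.9GFPCre* and 4, 3 and 4 in *Le-Cre*. Its *Le-Cre* pools thus lay above all others, at counts too low to be tested, and the *Le-Cre* pools did not overlap those of *FVB/N* for 13.5% and those of *P0-3.9GFPCre* for 14.1% of all tested genes. *P0-3.9GFPCre* replicate 2 was therefore the highest *P0-3.9GFPCre* pool for *Crx* and *Rcvrn* while it was the lowest for every tested blood and vessel member, and no line stood apart in either gene.

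The pigment cell genes *Dct* and *Tyrp1*, with the globin copy *Hbb-bt*, varied most of the tested members, at a CV within lines of 97.5%, 70.3% and 76.7%. *Dct*, which converts dopachrome in melanin synthesis, was at 0.42, 2.76 and 0.13 TPM in *FVB/N*, at 0.67, 1.36 and 0.33 TPM in *P0-3.9GFPCre* and at 0.56, 1.68 and 0.27 TPM in *Le-Cre*. *Tyrp1*, a related enzyme of the melanosome, was at 0.76, 2.48 and 0.27 TPM in *FVB/N*, at 1.39, 1.14 and 0.67 TPM in *P0-3.9GFPCre* and at 1.07, 1.32 and 0.41 TPM in *Le-Cre*. Both genes had their highest and their lowest level of all pools within *FVB/N*, in replicates 2 and 3, so that 1 line spanned the whole range. That span was 21.2-fold in TPM and 19.8-fold in CPM for *Dct*. For *Tyrp1* it was 9.19-fold in TPM and 18.25-fold in CPM, and RSEM assigned *Tyrp1* a length of 1255 bases in *FVB/N* replicate 3, against 2623 to 2720 bases in the other pools.

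*Tyr*, the tyrosinase gene that is mutated in albino strains but still transcribed, was at 0.08 to 0.36 TPM. *Mlana*, a melanosome protein, had 1, 10 and 0 counts in *FVB/N*, 8, 3 and 0 in *P0-3.9GFPCre* and 4, 6 and 3 in *Le-Cre*. For *Tyrp1*, *Dct* and *Mlana* the lowest pool of *FVB/N* and of *Le-Cre* was replicate 3, as for most vessel genes. In *P0-3.9GFPCre* replicate 3 was lowest for these pigment genes, whereas replicate 2 was lowest for every tested vessel member. The corneal keratins were not detected, with 0 counts of *Krt12* in all 9 pools and 0 counts of *Krt5* in 8 pools, against 2 counts of *Krt5* in *Le-Cre* replicate 3.

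**Figure D4:**
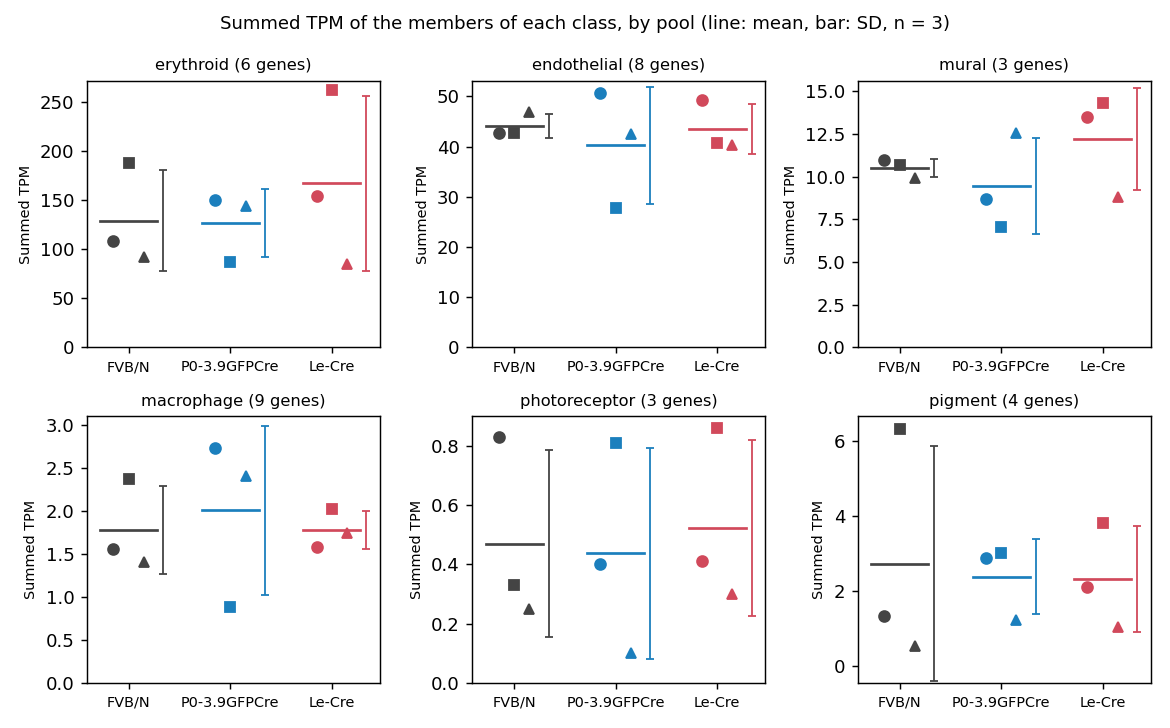
Summed TPM of the members of each cell type in each pool (points, with symbol shape for the replicate), by line, with the line mean (horizontal bar) and SD (vertical bar, n = 3). In *FVB/N* the spread relative to the mean is widest for pigment genes, at 0.53 to 6.31 TPM, and the 3 lines overlap in all 6 panels; the 2 corneal genes, at 0 in 8 pools, are not drawn.

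Class totals overlapped between the lines. The erythroid sum was 129 ± 51.2 TPM in *FVB/N*, 127 ± 34.9 TPM in *P0-3.9GFPCre* and 167 ± 89.4 TPM in *Le-Cre* (SD, n = 3 pools). The endothelial sum was 44.1 ± 2.37, 40.2 ± 11.6 and 43.5 ± 5.02 TPM in the same order, and the mural sum 10.54 ± 0.524, 9.44 ± 2.82 and 12.2 ± 2.97 TPM. In the endothelial sum of *FVB/N* replicate 3, a high value of *Pecam1* was offset by low values of *Cldn5* and of 5 other genes. The sum thus hides the low level of that pool in most single genes. The macrophage sum was 1.78 ± 0.516, 2.01 ± 0.989 and 1.78 ± 0.222 TPM, the photoreceptor sum 0.470 ± 0.314, 0.437 ± 0.356 and 0.523 ± 0.297 TPM, and the pigment sum 2.72 ± 3.13, 2.37 ± 0.999 and 2.32 ± 1.41 TPM.

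The study compared both hemizygous Cre lines with *FVB/N* to ask how the presence of each transgene changes the lens transcriptome. None of the 23 tested members met its cutoff of a change of 1.5-fold or more and an adjusted p no higher than 0.05. The study applied this cutoff with DESeq2. The main test here was edgeR's quasi-likelihood test on rounded expected counts of all 9 pools. Its p-values had Benjamini-Hochberg adjustment over the 15557 genes that passed the filter, 23 of the 35 members among them. In *Le-Cre* against *FVB/N* 0 of 23 members passed, where 0.0643% of all tested genes did. In *P0-3.9GFPCre* against *FVB/N* and in *Le-Cre* against *P0-3.9GFPCre* 0 members passed, and the share of all tested genes was 0% in both. DESeq2 also called 0 members in each comparison, and the share of all tested genes that it called is not given here. At an unadjusted p under 0.05 there were 0 members by edgeR in any comparison, while 7.94%, 6.81% and 7.88% of all tested genes were below it. The 3 comparisons share their pools, each line entering 2 of them, and for a single gene the smallest two-sided p of an exact permutation test with 3 pools in each line is 0.1.

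The 95% confidence interval (CI) of every tested member included 0 in all 3 comparisons. In *Le-Cre* against *FVB/N*, the log2 fold change of *Hbb-bs* was 0.50 (95% CI -0.17 to 1.17, adjusted p = 0.752 by edgeR's quasi-likelihood test) and that of *Hba-a1* was 0.55 (95% CI -0.34 to 1.43, adjusted p = 0.802). With the copies summed before the fit, it was 0.35 for α-globin (95% CI -0.40 to 1.09) and 0.40 for β-globin (95% CI -0.35 to 1.16). For *Cdh5* it was 0.21 (95% CI -0.34 to 0.76) and for *Rgs5* 0.18 (95% CI -0.46 to 0.82). In *P0-3.9GFPCre* against *FVB/N*, *Hbb-bs* was at -0.03 (95% CI -0.71 to 0.65), *Cdh5* at 0.16 (95% CI -0.39 to 0.71) and *Rgs5* at -0.20 (95% CI -0.84 to 0.45). The largest size in that comparison was 0.80 for *Csf1r* (95% CI -0.41 to 2.001, adjusted p = 0.827 by edgeR's test), a gene at no more than 0.40 TPM.

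Between the transgenic lines, the log2 fold change of *Le-Cre* against *P0-3.9GFPCre* was 0.53 for *Hbb-bs* (95% CI -0.15 to 1.20, adjusted p = 0.724 by edgeR's test) and 0.55 for *Acta2* (95% CI -0.16 to 1.25, adjusted p = 0.724). The 8 endothelial genes were all above 0, between 0.05 and 0.24. Their lowest *P0-3.9GFPCre* pool was the same for all of them, so these genes are no independent tests of a difference. Over the 23 tested members, 19 were above 0 here, as were 49.5% of all tested genes. The count was 14 of 23 in *Le-Cre* against *FVB/N*, against 49% of all tested genes, and 9 of 23 in *P0-3.9GFPCre* against *FVB/N*, against 50%. Median log2 fold changes of the members were 0.14, -0.11 and 0.15 in *Le-Cre* against *FVB/N*, *P0-3.9GFPCre* against *FVB/N* and *Le-Cre* against *P0-3.9GFPCre*, and those of all tested genes were -0.0040, 2.4e-05 and -0.0018.

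**Figure D5:**
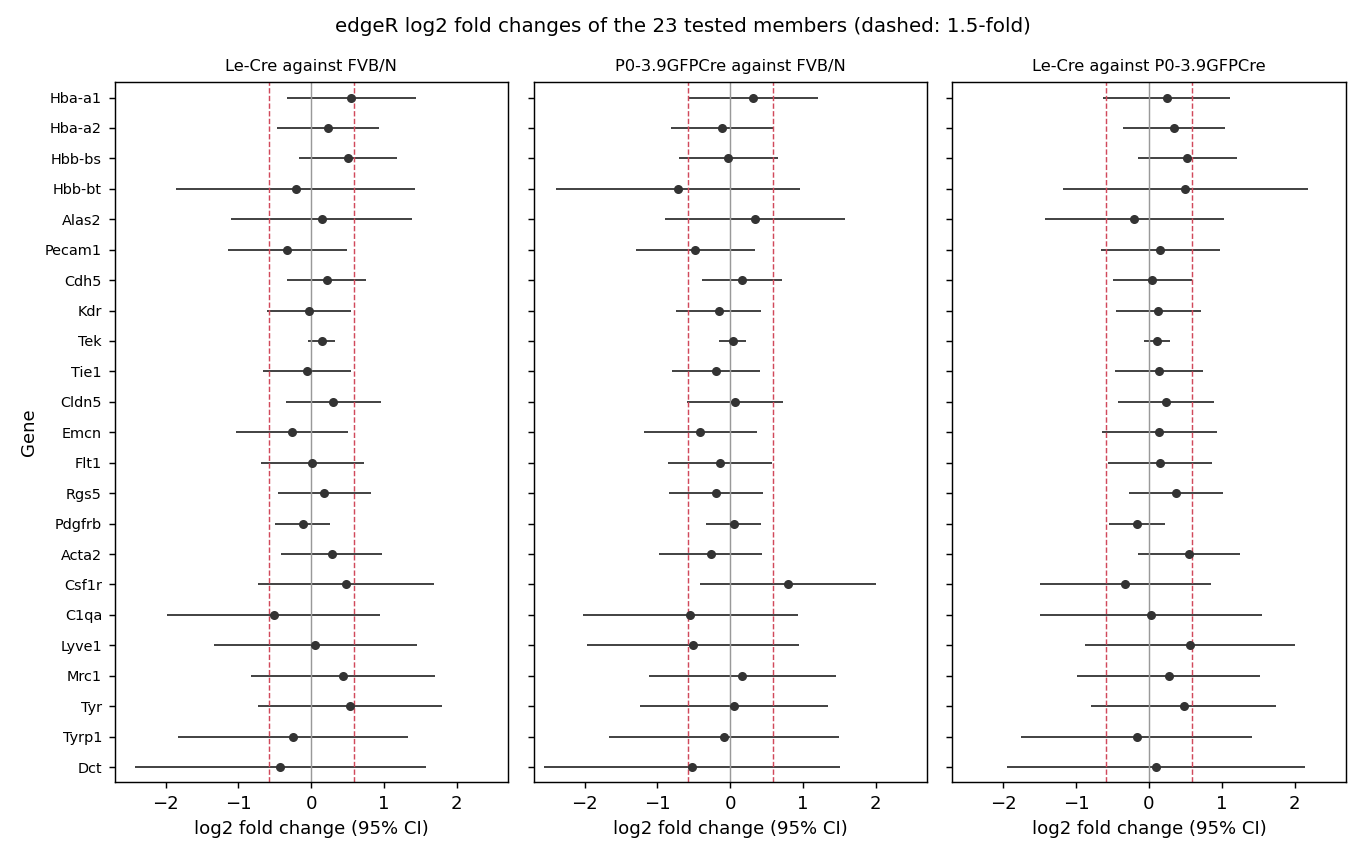
Log2 fold changes of the 23 tested members (rows) with 95% confidence intervals in the 3 comparisons, from edgeR's fit of all 9 pools, with dashed lines at 1.5-fold in either direction. Every interval includes 0, and those of *Tek* and *Pdgfrb* alone lie wholly inside the dashed lines in each panel.

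How closely a difference could be bounded depended on the gene. *Tek* had the narrowest interval, with a log2 fold change of 0.15 in *Le-Cre* against *FVB/N* (95% CI -0.04 to 0.33, adjusted p = 0.732 by edgeR's test). The interval of *Pdgfrb* was -0.50 to 0.26. These were the 2 of 23 members whose interval lay wholly within 1.5-fold in either direction, in each of the 3 comparisons, whereas the interval of 58.5% to 58.9% of all tested genes did so. For the other 21 members a change of 1.5-fold in at least 1 direction was within the interval, and for *Dct* in *Le-Cre* against *FVB/N* the interval ran from -2.43 to 1.58. The median CV within lines was 35.9% over the 23 members, against 12.7% over all tested genes.

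*Tek* was also the only tested member whose pools did not overlap between lines. It was at 19.0, 19.1 and 20.4 CPM in *Le-Cre* replicates 1 to 3, at 18.7, 16.2 and 17.9 CPM in *FVB/N* and at 18.8, 17.0 and 18.4 CPM in *P0-3.9GFPCre*. All 3 *Le-Cre* pools were thus above all other pools, by a margin of less than 1 CPM. Among tested members, non-overlap was found for 1 of 23 members in *Le-Cre* against *FVB/N*, where 13.5% of all tested genes did not overlap, for 0 of 23 in *P0-3.9GFPCre* against *FVB/N*, where 12% did not, and for 1 of 23 in *Le-Cre* against *P0-3.9GFPCre*, where 14.1% did not. On the TPM scale *Alas2* did not overlap between *Le-Cre* and *FVB/N* either, where 11.6% of all tested genes did not, and RSEM's lengths of *Alas2* were 840 to 1538 bases in *Le-Cre* and 1892 to 2037 bases in *FVB/N*. On that scale *Tek* overlapped between *Le-Cre* and *P0-3.9GFPCre*.

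One pool set the direction of several estimates. Without *Le-Cre* replicate 2, the pool with the most globin, the log2 fold change of *Hba-a2* in *Le-Cre* against *FVB/N* went from 0.23 to -0.09. Without *FVB/N* replicate 2, that of *Dct* went from -0.42 to 1.53 and that of *Tyrp1* from -0.25 to 1.05. Without *FVB/N* replicate 3, that of *Pecam1* went from -0.33 to 0.09. None of these members passed the cutoff in any of these fits.

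Further markers of the same cell types were tested to see whether the 35 members missed a difference. Of 119 such genes with values, 70 passed the filter, and 0 passed the cutoff in any of the 3 comparisons by edgeR's quasi-likelihood test. At an unadjusted p under 0.05 there were 7, 4 and 7 of the 70, beside 7.94%, 6.81% and 7.88% of all tested genes. The endothelial genes of this list were all tested, and the highest were *Egfl7*, a secreted vessel factor, at 14.7 to 23.6 TPM, *Eng*, a TGFβ co-receptor, at 2.81 to 8.98 TPM and *Cd34*, a sialomucin, at 2.92 to 7.13 TPM. The highest mural genes were *Notch3* at 3.28 to 5.83 TPM, *Ndufa4l2* at 0.85 to 3.81 TPM and *Mcam* at 0.93 to 2.74 TPM.

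A few genes of this list differed from the members of their class in level or in spread. *Stab1*, a scavenger receptor of macrophages and sinusoidal endothelium, was at 25.3 to 33.7 TPM, while no macrophage member exceeded 0.79 TPM. The highest erythroid genes of the list were *Tfrc*, the transferrin receptor of most dividing cells, at 18.8 to 27.7 TPM, *Bpgm*, the enzyme that makes bisphosphoglycerate, at 20.3 to 25.7 TPM and *Ermap* at 14.0 to 19.6 TPM. The median CV within lines of the 9 tested erythroid genes of the list was 12.7%, against 44.5% for the 5 tested erythroid members, and 0 of those 9 genes had the 3 lowest pools named above.

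The pigment genes of the list with the highest levels were *Trpm1* at 5.78 to 10.3 TPM, *Mitf*, the master factor of pigment cells, at 5.70 to 7.55 TPM and *Oca2* at 2.12 to 5.57 TPM. Of the retinal genes, *Elavl4* was at 1.13 to 2.48 TPM, *Sag*, the rod arrestin, at 0.95 to 2.31 TPM and *Gnat1*, the rod transducin, at 0.11 to 2.54 TPM. Among surface and stromal genes, *Perp*, a desmosome component of stratified epithelia and a p53 target, was at 8.85 to 16.01 TPM. Its log2 fold change in *Le-Cre* against *FVB/N* was 0.59 (95% CI 0.36 to 0.83), and the adjusted p was 0.107 by edgeR's quasi-likelihood test, 0.0012 by that test without the filter on low counts and 0.0017 by DESeq2. *Col1a2* and *Col3a1*, collagens of stroma, were at 0.73 to 1.66 TPM and at 0.03 to 0.53 TPM.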

How the data were processed

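RNA-Seq was performed on 3 pools of newborn lenses per line. The authors trimmed single-end reads with Trimmomatic 0.36, aligned them with GSNAP to GRCm38 and ran RSEM 1.3.0 for gene quantification, and the gene annotation was not given in the sources used here. The submitters' processing notes also name DESeq2 1.10.1. The deposited tables hold expected counts, which are not normalized, and TPM, which the authors' RSEM run scaled for gene length and library size. From the authors' tables RSEM's posterior standard deviation and gene length were used as well.

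Pools were grouped by the line and replicate number in the sample titles. Expected counts were rounded and tested in R 4.3.3 with edgeR 4.0.16 (TMM, filterByExpr, glmQLFit and glmQLFTest, 1 coefficient per line), with Benjamini-Hochberg adjustment over 15557 genes, and DESeq2 1.42.0 was an alternative. The script was tested on simulated data. TPM was used for levels and CPM for differences between pools. A member's pools were called not overlapping when every pool of one line was above every pool of the other.

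The members and the lists of further markers were chosen with earlier results of these data known. Of the members, all are named, and values are given for every pool for the 2 with the highest mean TPM of each cell type, those with an unadjusted p under 0.05, those whose pools do not overlap and those that did not pass the filter. Of the further markers, at most 3 per cell type are named, those with the highest mean TPM. A symbol with more than 1 row was read from the row with the highest mean count. Depth was 20670968 to 28098059 expected counts per pool. With pools as replicates, p-values measure the spread between pools of animals. CRE transcripts were not analysed here, and some listed genes are not reported here.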

Additional observations from a re-analysis of the deposited data

How the results depend on the processing

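No member passed the cutoff under any alternative: RLE size factors, DESeq2, no filter on low counts, a mean of at least 10 counts, the compared pools only, the globin copies summed, the replicate block or any pool left out. With the replicate block 0 members and 0 further markers passed in each comparison. The share of all tested genes that passed is not given for these alternatives, so the counts have no background beside them. The replicate numbers were not shown to pair the pools, since residuals of same-numbered pools of different lines had a mean correlation of 0.0299 (-0.104 to 0.12, n = 9 pairs) and other pairs of -0.0149 (n = 18).

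Among further markers, 1 passed in *Le-Cre* against *FVB/N* by DESeq2 and 1 without the filter on low counts, an alternative added after the data were seen, and leaving out a pool gave 0 to 1. It was *Perp* in each case, and the pool was *P0-3.9GFPCre* replicate 1 (adjusted p = 0.0492 by edgeR's test). Its adjusted p by edgeR's test or DESeq2 ranged from 0.0012 without the filter to 0.424 without *FVB/N* replicate 2. On the TPM scale the pools of 2 members did not overlap in *Le-Cre* against *FVB/N* (*Alas2* and *Tek*, against 11.6% of all tested genes). In *Le-Cre* against *P0-3.9GFPCre* the number on that scale was 0, against 12.3% of all tested genes. The 3 lowest pools were shared by 10 members in TPM, against 2.02% of all tested genes, and by 8 with RLE size factors, against 1.3%. Both settings were added after the data were seen.

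Of 1087 log2 fold changes of members under an alternative, 77 had another sign than the main estimate. In 16 of these the value also moved by more than 1 standard error, each time with a pool left out. Over the fits that each left out 1 pool, the values in *Le-Cre* against *FVB/N* ran from -0.087 without *Le-Cre* replicate 2 to 0.59 for *Hba-a2*, from -0.60 without the same pool to 0.46 for *Alas2*, from -0.51 to 0.087 without *FVB/N* replicate 3 for *Pecam1*, and from -0.77 to 1.05 for *Tyrp1* and from -1.34 to 1.53 for *Dct*, both highest without *FVB/N* replicate 2. In *P0-3.9GFPCre* against *FVB/N* they ran from -0.30 to 0.25 for *Hba-a2*, from -0.18 to 0.31 for *Hbb-bs*, from -0.60 to 1.21 for *Tyrp1* and from -1.17 to 1.43 for *Dct*, all highest without *FVB/N* replicate 2. In that comparison they also ran from -0.63 to 0.17 without *FVB/N* replicate 3 for *Acta2*, from -0.48 to 0.097 without *P0-3.9GFPCre* replicate 2 for *Tie1*, and from -0.11 to 0.39 for *Cdh5* and from -0.26 to 0.32 for *Cldn5*, both lowest without *P0-3.9GFPCre* replicate 3. In *Le-Cre* against *P0-3.9GFPCre* they ran from -0.26 to 0.52 for *Hba-a1* and from -0.27 to 1.38 for *Hbb-bt*, both lowest without *Le-Cre* replicate 2, and from -0.15 without *P0-3.9GFPCre* replicate 2 to 0.42 for *Tie1*.

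The ratio of the mean class total in *Le-Cre* to that in *FVB/N* was 0.986 for endothelial genes and 1.14 without *Pecam1*, and 1.11 for photoreceptor genes and 2.25 without *Rcvrn*. For photoreceptor genes in *P0-3.9GFPCre* over *FVB/N* it was 0.929, and 1.96 without *Rcvrn*. Leaving out 1 pool moved these photoreceptor ratios to between 0.755 and 1.80 in *Le-Cre* and to between 0.532 and 1.51 in *P0-3.9GFPCre*, the lowest without replicate 2 of the transgenic line and the highest without *FVB/N* replicate 1. For pigment genes, leaving out 1 pool moved the ratio of *Le-Cre* to *FVB/N* from 0.851 to between 0.575 and 2.49 and that of *P0-3.9GFPCre* to *FVB/N* from 0.870 to between 0.620 and 2.55, the highest values without *FVB/N* replicate 2. Summed CPM and TPM without crystallins moved no ratio by more than the spread between pools. Corneal totals gave no ratio, as *FVB/N* was at 0. The cause of these moves was not tested. At this depth the macrophage and photoreceptor members rest on few counts, and the part of counting error in their spread was not tested.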
